A study of Mus musculus with 8 samples.

Results

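The genes of vascular endothelial growth factor (VEGF) signalling were followed in mouse macrophages grown from bone marrow: the ligand genes Vegfa, Vegfb, Vegfc and Pgf, the receptor tyrosine kinase genes Flt1 and Kdr, and the co-receptor genes Nrp1 and Nrp2. These 8 genes were taken by symbol from a table of 55376 genes, with no threshold on any value, and all 8 were among the 13721 genes that passed the low-count filter. The genes were chosen by symbol with the fold changes of these same contrasts, IL-6 against control and HET against WT, already known, so the tests below describe these genes and are not independent evidence about the family. Every p-value was adjusted over all 13721 genes.

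VEGF ligands are secreted dimers that bind receptor tyrosine kinases. VEGF-A binds both VEGFR-1, encoded by Flt1, and VEGFR-2, encoded by Kdr, which carries most of the growth and permeability signal in endothelium. VEGF-B and placental growth factor (Pgf) bind VEGFR-1, which also acts as a decoy, in part as a soluble splice form, while VEGF-C acts mainly on lymphatic endothelium through VEGFR-3, encoded by Flt4. Neuropilins are co-receptors for several VEGF ligands and for class 3 semaphorins. Macrophages are a known source of VEGF-A in growing and inflamed tissue, and VEGFR-1 is known on monocytes and macrophages, where it serves in migration.

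Marrow was taken from WT (wild type) mice and from mice labelled DNMT3A-HET (HET below), a name that refers to the de novo DNA methyltransferase gene Dnmt3a. All mice were male and 13 weeks old, with 3 mice per genotype, and all cultures received M-CSF, the macrophage growth factor, at 50 ng/mL. Control, or untreated, cultures received no IL-6, a cytokine of inflammation whose receptor activates STAT3. IL-6, or treated, cultures received it at 10 ng/mL from day 6 for 2 days, and RNA was taken from all cultures on day 8. Each of the 4 groups held 2 libraries, numbered 1 and 2, and the labels do not tie libraries to mice or give the allele behind the HET label, so p-values measure the spread between these libraries.

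Library totals ran from 18926641 to 50137897 counts, the largest being HET IL-6 number 2. Levels are given as CPM, counts scaled to library size by the TMM method, in the order library 1, library 2. Dnmt3a was at 275 and 244 CPM in untreated WT, 175 and 183 in treated WT, 166 and 248 in untreated HET, and 140.1 and 213 in treated HET. Both HET number 2 libraries thus lay within the range of the WT libraries in Dnmt3a, and both HET number 1 libraries lay below it. A gene count does not show whether 1 copy is altered. The 10 macrophage markers examined were detected in every library, at a summed level of 12150 to 14380 CPM, of which Lyz2 had 5255 to 6821. At an edgeR adjusted p under 0.05, 3 of the 10 were higher and 3 lower in HET than in WT after IL-6. Of all tested genes, 13.2% were higher and 8.80% lower there. The endothelial markers Emcn, Cldn5 and Sox17 were at 0 in all 8 libraries, and Tek, Tie1, Esam, Robo4, Plvap, Erg and Mmrn2 did not exceed 0.359 CPM, nor Egfl7 0.788 CPM, while Vwf ran from 43.0 to 108 CPM, Cdh5 from 0.876 to 2.31 and Pecam1 from 0.438 to 1.29. In these bulk samples, fewer cells of a type and less RNA per cell cannot be told apart.

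The promoter bases of Vegfa, the main ligand gene, of both receptor genes and of Nrp2, the most abundant co-receptor gene, are shown because motifs of this pathway and treatment can be looked up in them. Hypoxia-inducible factors, the textbook inducers of Vegfa, bind a core of ACGTG or, at some targets, of GCGTG, and STAT3 binds TTCNNNGAA. The search windows reached from 250 bases before to 50 after a RefSeq start site on GRCm38.p6, the assembly also called mm10, and all 8 genes were found there, with 10 windows between them. Printed are the window bases that precede both the RefSeq start and the gene's annotated GENCODE exons. Capitals mark each match, on either strand, to either hypoxia core, to the STAT3 motif or to the GC box GGGCGG, and neighbouring matches run together. The second Vegfa window lies inside the gene, with 218 of its 300 bases in annotated exons, and is not printed.
Vegfa (chr17:46032378-46032627, minus strand): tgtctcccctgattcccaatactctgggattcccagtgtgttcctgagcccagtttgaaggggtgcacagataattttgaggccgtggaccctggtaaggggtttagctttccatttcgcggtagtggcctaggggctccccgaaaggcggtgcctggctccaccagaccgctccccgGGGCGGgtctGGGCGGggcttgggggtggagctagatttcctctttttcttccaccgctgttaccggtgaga
Flt1 (chr5:147726012-147726261, minus strand): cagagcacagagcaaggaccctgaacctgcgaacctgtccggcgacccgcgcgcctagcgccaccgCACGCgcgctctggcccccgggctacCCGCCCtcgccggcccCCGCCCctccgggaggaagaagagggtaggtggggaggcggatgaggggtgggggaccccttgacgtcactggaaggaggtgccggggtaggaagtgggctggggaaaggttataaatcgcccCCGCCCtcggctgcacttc
Kdr (chr5:75978459-75978705, minus strand): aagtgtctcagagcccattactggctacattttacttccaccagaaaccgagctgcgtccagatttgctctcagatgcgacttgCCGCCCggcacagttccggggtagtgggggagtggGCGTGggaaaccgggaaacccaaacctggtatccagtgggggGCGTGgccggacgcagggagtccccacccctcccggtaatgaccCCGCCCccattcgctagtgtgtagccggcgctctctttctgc
Nrp2 (chr1:62703067-62703284, plus strand): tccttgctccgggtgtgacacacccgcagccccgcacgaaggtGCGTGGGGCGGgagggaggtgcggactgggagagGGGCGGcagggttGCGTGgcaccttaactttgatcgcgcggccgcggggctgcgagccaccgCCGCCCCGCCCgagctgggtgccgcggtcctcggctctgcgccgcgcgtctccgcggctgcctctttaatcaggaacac

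No window of the 8 genes held TTCNNNGAA, which occurred in 8.3% of all 32851 windows of this length. ACGTG was found in 1 of the 10 windows, the internal one of Vegfa, against 19.6% of all windows, and GCGTG in 7 of 10 against 32.4%. GGGCGG was found in 9 of 10 against 35.7%. Both Pgf windows also lay inside their gene, with all 300 bases in annotated exons. The Nrp1 window, from base 128358823, began after the annotated gene start at 128358604. The motif counts describe letters in short windows of GC-rich sequence, which was 59.3% to 75.3% G and C in the 10 windows. Sites outside the windows were not searched.

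Per length (RPKM, the CPM divided by exon length in kilobases), the co-receptors stood far above the other genes. Nrp2 led in every group, with a mean of 64.1 RPKM in untreated WT, 108.5 in treated WT, 72.4 in untreated HET and 100 in treated HET, and Nrp1 was next at 43.7 to 55.4 RPKM. Vegfb was the most abundant ligand transcript in each group (10.9 to 19.8 RPKM). Vegfa followed at 10.4 to 14.3 RPKM in 3 groups but stood below Kdr in treated WT, at 4.65 RPKM against 5.62 for Kdr. Vegfc (0.498 to 1.48 RPKM), Pgf (0.416 to 0.889) and Flt1 (0.130 to 0.696) were low throughout. Neighbours in this order were apart in both libraries of a group, except for Pgf and Flt1 in untreated WT and for Pgf and Vegfc in treated WT and in treated HET, whose library values overlapped.

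Vegfa (ENSMUSG00000023951.17, chromosome 17, 46016993 to 46032369, mm10) encodes the main angiogenic ligand. It was measured at 56.1 and 44.6 CPM in untreated WT and at 19.0 and 20.8 CPM in treated WT. In HET it was at 41.0 and 48.3 CPM in control and at 75.7 and 47.0 CPM in IL-6. Both WT IL-6 libraries lay below all 6 others, whereas HET IL-6 number 1 lay above all others and HET IL-6 number 2 between the HET control libraries. Vegfa fell 2.54-fold with IL-6 in WT (log2 fold change -1.34 ± 0.23 (SE), edgeR adjusted p = 0.00438). In HET the log2 fold change was 0.45 ± 0.21 (edgeR adjusted p = 0.206, 95% interval -0.04 to 0.94). This value was called without the low-count filter (0.47, edgeR adjusted p = 0.00109), without HET IL-6 number 2 (0.76, adjusted p = 0.00363) and without HET number 2 of both treatments (0.89, adjusted p = 0.00136). Leaving out HET number 1 of both treatments gave -0.03 (edgeR adjusted p = 0.983).

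With IL-6, Vegfa was 3.06-fold higher in HET than in WT (1.61 ± 0.23, edgeR adjusted p = 0.00232). Without IL-6 the genotypes were at 50.4 ± 8.14 (WT) and 44.6 ± 5.21 CPM (HET) (mean ± SD, n = 2 libraries each), and the log2 fold change was -0.18 ± 0.22 (edgeR adjusted p = 0.690). The response to IL-6 differed between the genotypes by 1.79 ± 0.31 on the log2 scale (edgeR adjusted p = 0.0129). The WT fall lost its call when WT control number 1 was left out (-1.17, edgeR adjusted p = 0.127), and likewise for WT IL-6 number 1 (-1.28, adjusted p = 0.143) or number 2 (-1.40, adjusted p = 0.0820). The genotype difference after IL-6 lost its call when WT IL-6 number 1 was left out (1.55, edgeR adjusted p = 0.120), and the difference of responses was not called when any 1 WT library was left out (1.61 to 1.94, adjusted p from 0.0568 to 0.171).

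Vwf, which encodes the clotting protein von Willebrand factor and marks endothelium and megakaryocytes, had the same order of WT and HET responses as Vegfa, at 108 and 81.4 CPM in untreated WT, 43.0 and 48.2 in treated WT, 59.8 and 67.6 in untreated HET and 83.5 and 83.7 in treated HET. It fell with IL-6 in WT (-1.05 ± 0.12, edgeR adjusted p = 2.50e-05) and rose in HET (0.39 ± 0.12, adjusted p = 0.0298). The other endothelial markers were low, as given above. Cdh5 went the other way, at 0.995 ± 0.288 in WT (edgeR adjusted p = 0.0264) and -0.26 ± 0.26 in HET (0.558). The difference of responses was 1.45 ± 0.17 for Vwf (edgeR adjusted p = 2.99e-04) and -1.26 ± 0.39 for Cdh5 (0.0642). Pecam1 (0.56 ± 0.56, adjusted p = 0.610) and Egfl7 (0.410 ± 0.645, adjusted p = 0.767) had the sign of Vwf and did not pass the test. The 10 mast cell and basophil markers summed to 8.52 and 5.21 CPM in untreated WT, 1.82 and 1.71 in treated WT, 2.27 and 3.72 in untreated HET and 3.40 and 3.40 in treated HET. Kit, at 1.32 to 7.77 CPM, made up most of these sums. It fell with IL-6 in WT (-2.12 ± 0.30, edgeR adjusted p = 1.705e-04) and was at 0.12 ± 0.28 in HET (0.824). Its difference of responses was 2.24 ± 0.41 (edgeR adjusted p = 0.00498). Cpa3, at 0.0536 to 0.637 CPM, did not pass the test (difference 1.625 ± 0.915, edgeR adjusted p = 0.324). Mcpt8, Ms4a2 and Gata2 did not exceed 0.124 CPM, and Mcpt4, Tpsb2, Cma1, Fcer1a and Prss34 were at 0 in every library. The 8 megakaryocyte markers summed to 11.4 and 24.4 CPM in untreated WT, 13.1 and 15.5 in treated WT, 12.2 and 11.8 in untreated HET and 20.8 and 11.4 in treated HET. Most of this was Ppbp, a platelet chemokine gene, at 6.01 to 13.0 CPM. Within each treated group, the library with the higher megakaryocyte sum also had the higher Vegfa level. Within each untreated group, it had the lower Vegfa level. Of the 7 tested megakaryocyte markers, Gp9 had the smallest adjusted p for the difference of responses (2.72 ± 1.18, edgeR adjusted p = 0.196), and Gp1bb was at 0 in every library. The part of these markers in the Vegfa result was not tested.

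Vegfb (ENSMUSG00000024962.13, chromosome 19, 6982473 to 6987651), a ligand of VEGFR-1 linked to fatty acid handling and heart muscle, was at 31.4 and 24.8 CPM in untreated WT and 17.8 and 17.3 in treated WT. In HET it was at 23.5 and 21.8 CPM in control and 32.8 and 30.9 in IL-6. The treated libraries were therefore apart from their controls in both genotypes, below them in WT and above them in HET. Vegfb fell 1.60-fold with IL-6 in WT (-0.68 ± 0.12, edgeR adjusted p = 8.84e-04) and rose 1.40-fold in HET (0.49 ± 0.11, edgeR adjusted p = 0.00689). With offsets for GC content and transcript length the WT fall was -0.43 (edgeR adjusted p = 0.0117). It was the only one of the 8 genes called in opposite directions in the genotypes, which held for 0.816% of all tested genes. The difference of responses was 1.17 ± 0.16 (edgeR adjusted p = 8.17e-04) and stayed called without each library in turn.

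After IL-6, Vegfb was 1.81-fold higher in HET than in WT (0.86 ± 0.12, edgeR adjusted p = 3.10e-04). The same offsets brought this to 0.39 (adjusted p = 0.0324). Without IL-6 it was at -0.31 ± 0.11 in HET against WT (edgeR adjusted p = 0.136), and with the offsets at -0.48 (adjusted p = 0.0224). The HET rise was not called without HET control number 2 (0.44, edgeR adjusted p = 0.0802) or HET IL-6 number 1 (0.45, adjusted p = 0.0626).

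Vegfc (ENSMUSG00000031520.6, chromosome 8, 54077606 to 54187096), the lymphangiogenic ligand, responded to IL-6 in the same direction in both genotypes. It was at 3.27 and 3.31 CPM in untreated WT and 1.86 and 1.18 in treated WT, and at 3.59 and 3.64 CPM in untreated HET and 1.37 and 1.07 in treated HET. All 4 treated libraries lay below all 4 controls, on 22 to 87 reads per library. The gene fell 2.12-fold in WT (-1.09 ± 0.26, edgeR adjusted p = 0.0084) and 3.03-fold in HET (-1.60 ± 0.25, edgeR adjusted p = 3.87e-04). The difference of responses was -0.51 ± 0.36 (edgeR adjusted p = 0.439), with a 95% interval of -1.28 to 0.26. With WT IL-6 number 2 left out, the WT fall was -0.82 (edgeR adjusted p = 0.0745).

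Pgf (ENSMUSG00000004791.7, chromosome 12, 85166635 to 85177790), placental growth factor, was at 1.35 and 1.06 CPM in untreated WT and 2.40 and 1.98 in treated WT, and at 2.28 and 2.89 CPM in untreated HET and 1.49 and 1.86 in treated HET, on 24 to 92 reads per library. Untreated HET libraries were thus above untreated WT libraries, and IL-6 libraries lay above their controls in WT and below them in HET. Pgf was 2.13-fold higher in HET than in WT without IL-6 (1.09 ± 0.28, edgeR adjusted p = 0.0382). It rose 1.82-fold with IL-6 in WT (0.86 ± 0.28, edgeR adjusted p = 0.0476), while in HET the value was -0.60 ± 0.25 (edgeR adjusted p = 0.122). The difference of responses was -1.46 ± 0.38 (edgeR adjusted p = 0.0304).

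These Pgf calls were close to the threshold. The WT rise was not called when any 1 of the 8 libraries was left out (edgeR adjusted p from 0.0505 to 0.252) nor by DESeq2 (adjusted p = 0.135), and the genotype difference in control was not called without HET control number 1 (adjusted p = 0.143) or number 2 (0.227), WT control number 2 (0.153), or either HET IL-6 library (0.0533 and 0.0537). With offsets for GC content and transcript length the latter was 0.97 (edgeR adjusted p = 0.0580). The difference of responses was not called by DESeq2 (adjusted p = 0.0693), nor with WT IL-6 number 1 or any 1 of the 4 HET libraries left out (edgeR adjusted p from 0.0536 to 0.119). The neutrophil marker S100a9, singled out after its values were seen, had a like order of groups, at 0.319 and 0.441 CPM in untreated WT, 1.20 and 0.857 in treated WT, 1.23 and 1.17 in untreated HET and 0.497 and 0.628 in treated HET. The 10 neutrophil markers summed to 2.83 and 3.88 CPM in untreated WT, 11.2 and 12.5 in treated WT, 6.12 and 4.94 in untreated HET and 7.09 and 6.08 in treated HET, and Ly6g, which defines neutrophils, was at 0 in every library but HET control number 1. Of the 4 tested neutrophil markers, 2 rose with IL-6 in WT, and in HET S100a9 fell (-1.05 ± 0.35, edgeR adjusted p = 0.0482) while the collagenase gene Mmp8 rose (0.88 ± 0.23, adjusted p = 0.0156). Mmp8 was at 1.51 and 2.60 CPM in untreated WT, 8.68 and 9.97 in treated WT, 3.19 and 2.30 in untreated HET and 5.51 and 4.66 in treated HET, an order unlike that of Pgf. The part of these markers in the Pgf result was not tested.

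**Figure D1:**
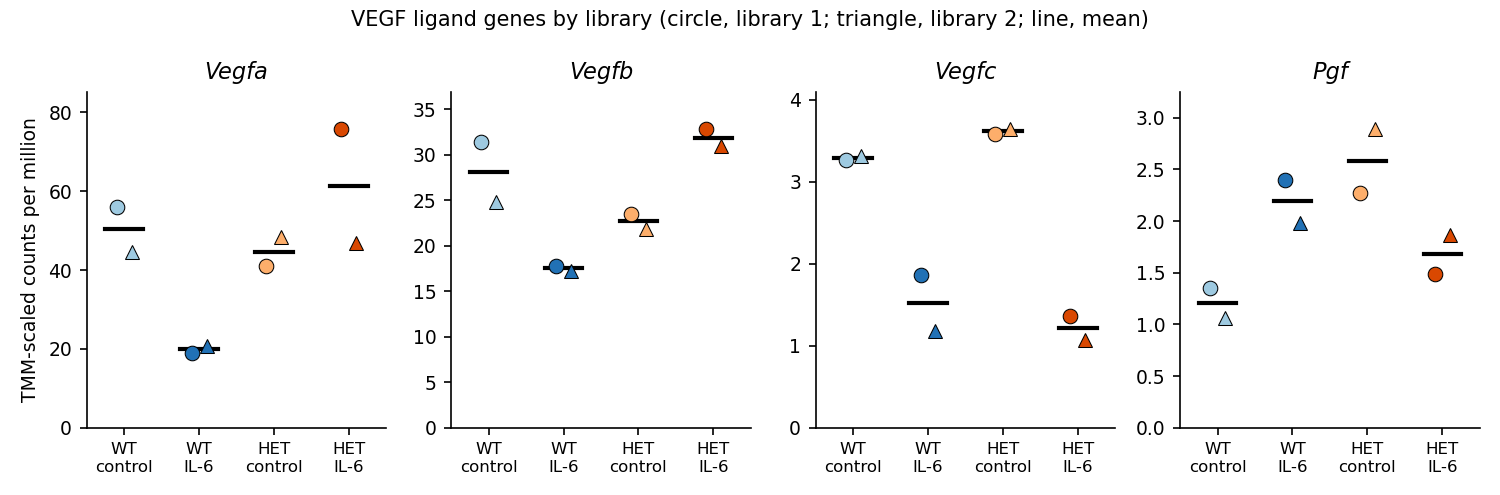
TMM-scaled CPM (vertical axes, each from 0) of the 4 ligand genes in the 4 groups, 1 symbol per library and a line at the mean of 2 libraries. Vegfa and Vegfb are lowest in both WT IL-6 libraries, Vegfc is lower in all 4 IL-6 libraries than in all 4 controls, and Pgf is lowest in untreated WT.

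As a share of the summed ligand level per length, Vegfb and Vegfa together made up most of every library. Vegfa held 38.0% and 37.8% of it in untreated WT and 25.9% and 28.9% in treated WT, against 36.1% and 41.2% in untreated HET and 45.1% and 35.0% in treated HET. Vegfb held 49.7% to 64.8% over the 8 libraries, with 64.8% and 64.1% in treated WT. Vegfc held 5.54% and 5.43% in untreated HET and 1.43% and 1.40% in treated HET. Pgf held 1.35% and 1.32% in untreated WT and 4.82% and 4.07% in treated WT, where the level of the other 3 ligands was also lower. These shares describe the libraries and were not tested.

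**Figure D2:**
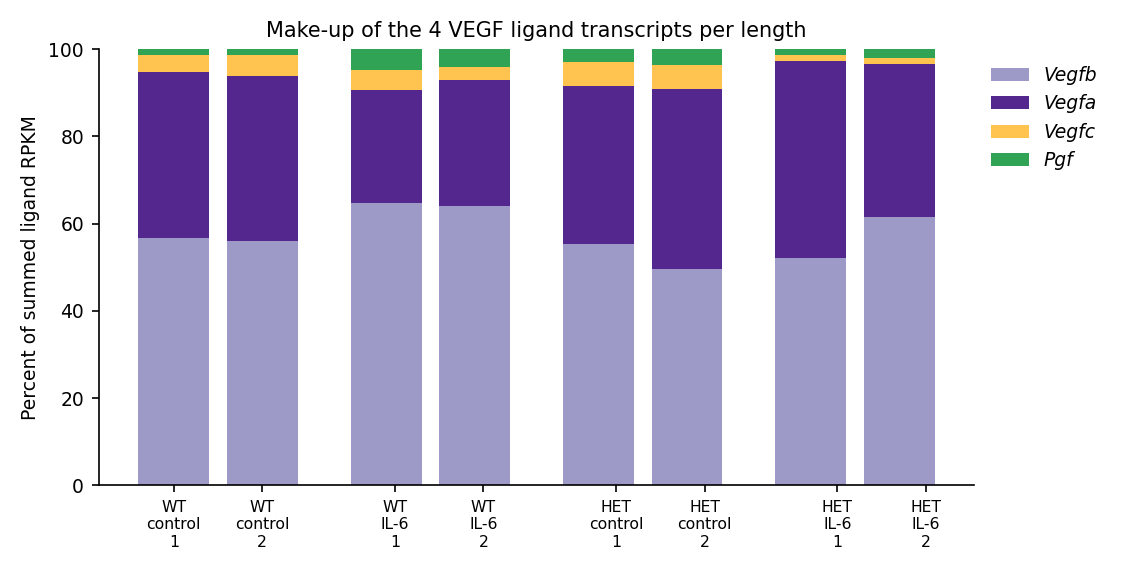
Share (vertical axis, percent) of each of the 4 ligand genes in their summed RPKM, 1 bar per library. The Vegfa part is 25.9% and 28.9% in the WT IL-6 bars and at least 35.0% in the other 6.

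Among the receptors, Flt1 (ENSMUSG00000029648.13, chromosome 5, 147561604 to 147726011), which encodes VEGFR-1, had the largest difference of responses among the 8 genes. It was at 4.74 and 5.47 CPM in untreated WT and 5.91 and 4.77 in treated WT, so the WT groups overlapped. In HET it was at 9.01 and 9.79 CPM in control and 1.49 and 2.03 in IL-6, on 206, 234, 36 and 100 reads. The HET control libraries were above all others and the HET IL-6 libraries below all others. Counts per gene do not separate the membrane form from the soluble form.

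With IL-6, Flt1 fell 5.18-fold in HET (-2.37 ± 0.19, edgeR adjusted p = 8.69e-07). In WT the log2 fold change was 0.08 ± 0.18 (edgeR adjusted p = 0.824, 95% interval -0.32 to 0.47). The difference of responses, -2.45 ± 0.26 (edgeR adjusted p = 1.72e-04), ranged from -2.75 to -2.28 over all alternatives tried and stayed called in each. Flt1 was 1.84-fold higher in HET than in WT without IL-6 (0.88 ± 0.17, edgeR adjusted p = 0.0135) and 2.96-fold lower with it (-1.57 ± 0.20, edgeR adjusted p = 2.36e-04). The first of these was not called without HET control number 1 (0.94, edgeR adjusted p = 0.101) or number 2 (0.82, adjusted p = 0.0898), and the second was called under every alternative tried.

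Kdr (ENSMUSG00000062960.10, chromosome 5, 75932827 to 75978458), which encodes VEGFR-2, rose with IL-6 in both genotypes. It was at 33.1 and 29.6 CPM in untreated WT and 52.9 and 48.7 in treated WT, and at 25.2 and 27.2 CPM in untreated HET and 52.3 and 53.1 in treated HET. All 4 treated libraries were above all 4 controls. The rise was 1.62-fold in WT (0.70 ± 0.09, edgeR adjusted p = 1.03e-04) and 2.01-fold in HET (1.01 ± 0.09, edgeR adjusted p = 3.43e-06), and both were called under every alternative tried. Between the genotypes, the responses to IL-6 were 0.31 ± 0.13 apart (edgeR adjusted p = 0.173, 95% interval 0.03 to 0.59), and with offsets for GC content and transcript length 0.36 (adjusted p = 0.0455). HET control was at -0.26 ± 0.10 against WT control (edgeR adjusted p = 0.136). Kdr is best known from endothelium. Of the 4 tested endothelial markers, Cdh5 (VE-cadherin) rose with IL-6 in WT (1.00 ± 0.29, edgeR adjusted p = 0.0264). Its levels went from 0.876 and 1.32 CPM to 2.07 and 2.31. Vwf fell there (-1.05 ± 0.12, edgeR adjusted p = 2.50e-05). Pecam1 (0.252 ± 0.395, adjusted p = 0.717) and Egfl7 (-0.278 ± 0.488, adjusted p = 0.7505) did not pass the test. In HET, Cdh5 was at 1.97 and 2.01 CPM without IL-6 and 1.49 and 1.78 with it. Among 4 tested stromal markers, Acta2, the smooth muscle actin gene, rose with IL-6 in WT (1.49 ± 0.44, edgeR adjusted p = 0.0308). It went from 1.08 and 1.68 CPM to 5.75 and 1.77 there, so the rise rested mainly on library 1. In HET it was at 0.93 ± 0.56 (adjusted p = 0.300), with 1.16 and 0.99 CPM after IL-6. No other of these markers passed the test in WT, with values from 0.03 for Col1a1 to 1.31 for Pdgfrb. The 10 stromal markers summed to 4.58 and 11.1 CPM in untreated WT, 17.9 and 7.56 in treated WT, 3.33 and 1.92 in untreated HET and 7.502 and 4.05 in treated HET. After IL-6, Acta2 (-1.86 ± 0.43, edgeR adjusted p = 0.0102) and Pdgfrb, which encodes a receptor of mural cells and fibroblasts (-1.52 ± 0.52, adjusted p = 0.0487), were lower in HET than in WT. The part of these markers in the Kdr result was not tested.

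The neuropilin genes were the most highly expressed of the set. Nrp2 (ENSMUSG00000025969.15, chromosome 1, 62703285 to 62818695), the co-receptor for VEGF-C and semaphorin 3F, was at 753 and 766 CPM in untreated WT and 1301 and 1269 in treated WT, and at 879 and 836 CPM in untreated HET and 1159 and 1210 in treated HET. The treated libraries lay above the controls in both genotypes. It rose 1.69-fold in WT (0.76 ± 0.08, edgeR adjusted p = 8.67e-06) and 1.38-fold in HET (0.47 ± 0.08, edgeR adjusted p = 6.35e-04). The WT rise was called under every alternative tried, and the HET rise was not called without both HET number 1 libraries (edgeR adjusted p = 0.0545) or both number 2 libraries (0.187), where 1 library stood for each HET group. HET minus WT, the response was -0.29 ± 0.11 (edgeR adjusted p = 0.119, 95% interval -0.52 to -0.06), and by DESeq2 it was -0.30 (adjusted p = 0.0392).

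Nrp1 (ENSMUSG00000025810.9, chromosome 8, 128358604 to 128503363), the co-receptor for VEGF-A and semaphorin 3A, was at 477 and 458 CPM in untreated WT and 533 and 551 in treated WT, and at 434 and 421 CPM in untreated HET and 514 and 541 in treated HET. Treated libraries were above controls in both genotypes, by 1.16-fold in WT (0.21 ± 0.08, edgeR adjusted p = 0.0708; DESeq2 adjusted p = 0.0252) and by 1.23-fold in HET (0.30 ± 0.08, edgeR adjusted p = 0.0128). The HET call was lost on leaving out any 1 of the 4 HET libraries (edgeR adjusted p from 0.0609 to 0.162). An annotated microRNA gene, Mir1903, shares 80 of the 9785 exon bases of Nrp1, and no other gene overlaps exons of the remaining 7.

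**Figure D3:**
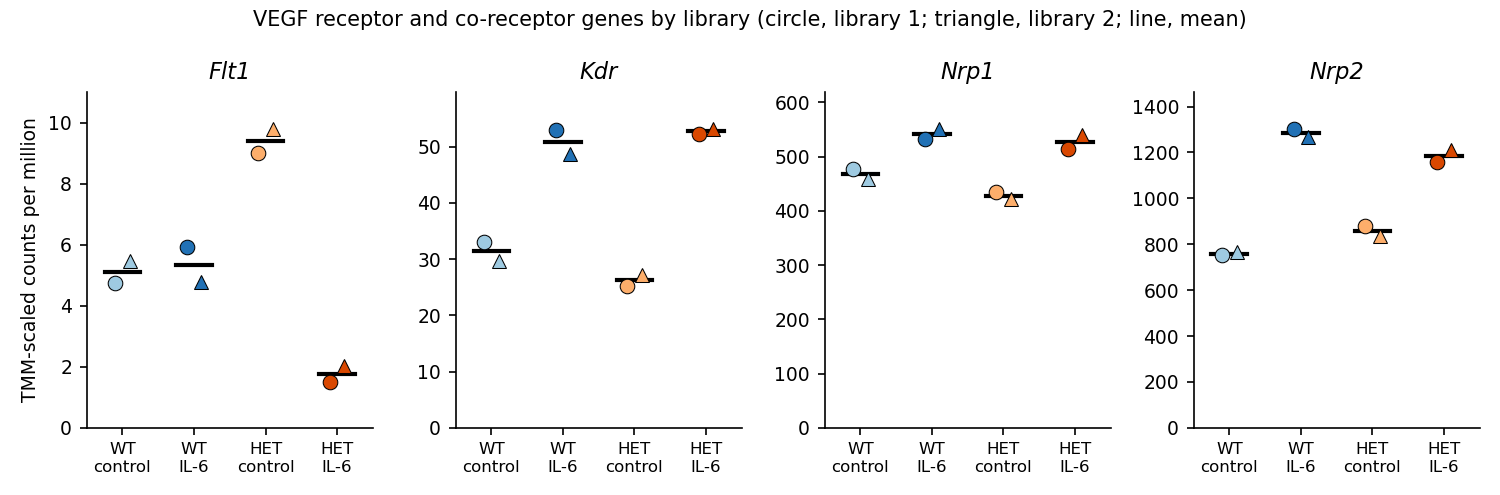
TMM-scaled CPM (vertical axes, each from 0) of the 4 receptor and co-receptor genes in the 4 groups, 1 symbol per library and a line at the mean of 2 libraries. Flt1 is highest in untreated HET and lowest in treated HET, while Kdr, Nrp1 and Nrp2 are higher in the IL-6 libraries of both genotypes.

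Among the receptor transcripts, Nrp2 and Nrp1 together held most of the summed RPKM in every library. Nrp2 held 54.6% and 56.2% in untreated WT and 64.4% and 63.4% in treated WT, against 60.8% and 60.1% in untreated HET and 62.6% and 62.5% in treated HET. Flt1 held 0.547% and 0.617% in untreated HET and 0.0707% and 0.0918% in treated HET. In WT its share was 0.301% and 0.352% in control and 0.257% and 0.209% in IL-6. There the CPM of Flt1 overlapped between the groups, and the Nrp2 level was higher with IL-6. The receptor shares were not tested.

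Counted over the set, edgeR called 6 of 8 genes for IL-6 against control in WT, where 18.3% of all tested genes were called. The 3 higher genes were Pgf, Kdr and Nrp2 and the 3 lower ones Vegfa, Vegfb and Vegfc, against 7.91% and 10.4% of all tested genes. In HET it called 6 of 8, again against 18.3%. Here 4 genes were higher, Vegfb, Kdr, Nrp1 and Nrp2, and 2 lower, Vegfc and Flt1, against 8.87% and 9.41%. The 3 genes Vegfc, Kdr and Nrp2 were called in the same direction in both genotypes, as were 7.36% of all tested genes. For HET against WT without IL-6, 2 of 8 were called, Pgf and Flt1, both higher, against 4.85% of all genes in either direction, 2.81% higher and 2.05% lower. With IL-6, 3 of 8 were called, against 22.0%, with Vegfa and Vegfb higher (13.2% of all genes) and Flt1 lower (8.80%). The other 5 did not pass the test after IL-6, with log2 values of -0.38 ± 0.28 for Vegfc, -0.37 ± 0.26 for Pgf, 0.05 ± 0.09 for Kdr, -0.04 ± 0.08 for Nrp1 and -0.12 ± 0.08 for Nrp2. The IL-6 responses of the genotypes differed in 4 of 8, against 8.12%, with Vegfa and Vegfb more positive in HET (4.52%) and Pgf and Flt1 more negative (3.60%). The median log2 fold change of the 8 genes was 0.14 in WT and 0.38 in HET for IL-6, against -0.01 and 0.01 for all tested genes. The genes were listed with results known, and the 5 comparisons share libraries, so these counts are a description.

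**Figure D4:**
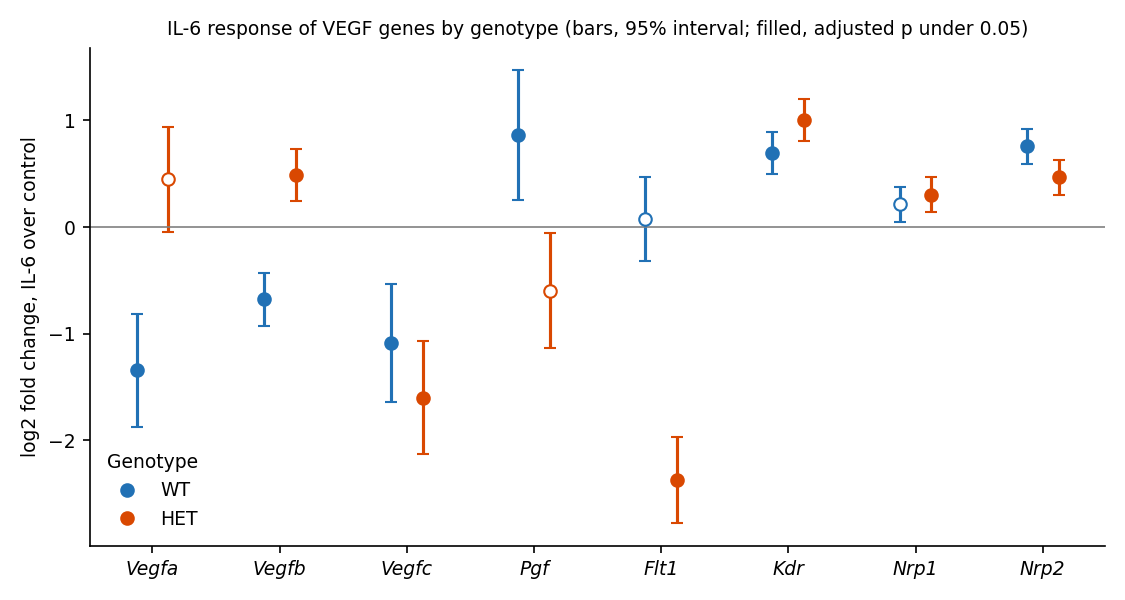
Log2 fold change of IL-6 over control (vertical axis) for the 8 genes in WT (blue) and HET (orange), with 95% intervals; filled symbols have an edgeR adjusted p under 0.05. The WT and HET symbols lie on opposite sides of 0 for Vegfa, Vegfb and Pgf, and those of Flt1 at 0.08 in WT and -2.37 in HET, whereas Vegfc, Kdr, Nrp1 and Nrp2 lie on the same side in both.

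Of the rest of the family, Vegfd had 0 to 6 reads per library and was not tested. Flt4, the VEGF-C receptor gene, had 8 to 26 reads per library. It was at 0.637 and 0.529 CPM in untreated WT and 0.413 and 0.429 in treated WT, and at 1.14 and 0.711 CPM in untreated HET and 0.456 and 0.284 in treated HET. Flt4 fell in HET (-1.40 ± 0.42, edgeR adjusted p = 0.0324) and was at -0.48 ± 0.48 in WT (adjusted p = 0.549). For HET minus WT the response was -0.93 ± 0.64 (edgeR adjusted p = 0.436).

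Of 12 genes of class 3 semaphorins, the other ligands of neuropilins, and of their plexin receptors, 7 were tested. In WT 2 rose with IL-6 and 2 fell, and in HET 1 rose and 1 fell, against 7.91% of all tested genes higher and 10.4% lower in WT and 8.87% and 9.41% in HET. Changes are again on the log2 scale. Sema3c, a ligand of both neuropilins, rose most, by 2.29 ± 0.15 in WT (edgeR adjusted p = 1.18e-07) and by 1.67 ± 0.15 in HET (3.10e-06), and was at 3.71 and 4.41 CPM in untreated WT and 19.9 and 19.8 in treated WT. The semaphorin receptor gene Plxnd1 fell by 0.62 ± 0.10 in WT (adjusted p = 3.66e-04) and by 0.32 ± 0.09 in HET (adjusted p = 0.0314). The plexin gene Plxna4 rose by 1.21 ± 0.17 in WT (adjusted p = 1.65e-04) and was at 0.25 ± 0.16 in HET (adjusted p = 0.348), a difference of -0.97 ± 0.24 (adjusted p = 0.0235).

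Of 31 tested genes of signalling downstream of the receptors, 2 rose and 4 fell with IL-6 in WT and 3 rose and 5 fell in HET, with medians of -0.01 and -0.02. In each genotype 18.3% of all tested genes were called in either direction. The docking protein gene Gab1 rose by 1.78 ± 0.11 in WT (edgeR adjusted p = 7.94e-08) and by 1.79 ± 0.11 in HET (5.60e-08). The kinase gene Map2k2 was lower with IL-6 in WT (-0.37 ± 0.09, adjusted p = 0.0129), and its response differed between the genotypes (0.58 ± 0.13, adjusted p = 0.0154).

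Vegfa is a textbook target of the hypoxia-inducible factors, so genes of that pathway were set beside it. Of 19 other tested targets, 14 rose and 1 fell with IL-6 in WT (median 0.49, against -0.01 for all tested genes), the comparison in which Vegfa fell. Of all tested genes, 7.91% were higher and 10.4% lower there. Among those that rose in WT were Ndrg1 (1.14 ± 0.10), the glucose transporter gene Slc2a1 (0.94 ± 0.09), Pdk1 (0.76 ± 0.08) and Pgk1 (0.70 ± 0.08), each with an edgeR adjusted p of at most 2.34e-05. In HET 9 of 19 rose and 0 fell by edgeR (median 0.30), against 8.87% higher and 9.41% lower among all tested genes. The response of 1 target was more positive in HET, Pfkfb4 (0.575 ± 0.145, edgeR adjusted p = 0.0274). It was at 45.8 and 37.55 CPM in untreated WT, 27.4 and 30.8 in treated WT, 39.7 and 40.0 in untreated HET and 41.2 and 41.5 in treated HET. The responses of 2 were more negative, Mxi1 (-0.63 ± 0.13, edgeR adjusted p = 0.0110) and Pgk1 (-0.39 ± 0.11, adjusted p = 0.0418). Of 9 oxygen-sensing genes, 1 rose and 1 fell in each genotype, where 18.3% of all tested genes were called in either direction. The riser was Epas1, which encodes HIF-2 alpha (0.65 ± 0.13 in WT, edgeR adjusted p = 0.00357, and 1.08 ± 0.13 in HET, 4.68e-05). The gene that fell was Egln2 in WT (-0.38 ± 0.11, edgeR adjusted p = 0.0258) and Egln3 in HET (-0.97 ± 0.32, adjusted p = 0.04815). The response of Egln2 differed between the genotypes (0.57 ± 0.15, edgeR adjusted p = 0.0321). Hif1a was at 0.28 ± 0.10 in WT (edgeR adjusted p = 0.0673) and 0.26 ± 0.10 in HET (adjusted p = 0.0921). The part of this pathway in the Vegfa result was not tested.

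Among 15 tested genes of other secreted angiogenic factors and inhibitors, 4 rose with IL-6 in WT and no other passed the test, while in HET 3 rose and 1 fell, again beside 18.3% of all tested genes called in each genotype. Pdgfc, a platelet-derived growth factor gene, rose by 1.50 ± 0.12 in WT (edgeR adjusted p = 7.99e-07) and by 2.25 ± 0.12 in HET (2.00e-08). Thbs1, which encodes the angiogenesis inhibitor thrombospondin-1, rose by 0.64 ± 0.14 in WT (adjusted p = 0.00465) and by 1.07 ± 0.14 in HET (8.45e-05). Pdgfb fell in HET (-0.46 ± 0.09, adjusted p = 0.00274) and was higher in HET than in WT without IL-6 (0.72 ± 0.09, adjusted p = 0.00208).

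Over the 8 libraries, genes close in pattern to each member were found by Pearson r of log2 CPM among 9319 genes with a mean of at least 5 CPM. For Vegfa they included Anapc16 (r = 0.987) and Trim16 (0.966). For Vegfb they were Psph (0.986) and Phgdh (0.968), both of serine synthesis, and Hes6 (0.976). Vegfc was closest to Parp12 (0.991), Nmi (0.984) and Ston2 (0.983), and Pgf to Nutf2 (0.930), Nid2 (0.929) and Nsl1 (0.913). Flt1 was closest to Crybg1 (0.993), Melk (0.985) and Cep68 (0.981), and Kdr to Slc25a30 (0.997), Wfdc17 (0.990) and the mannose receptor gene Mrc1 (0.990). Nrp1 was closest to the Fc receptor gene Fcgr3 (0.991), Tcf4 (0.982) and Akap17b (0.981), and Nrp2 to Slc39a14 (0.996), the cathepsin L gene Ctsl (0.995) and Cd244a (0.994). All points share their library and scaling, and with 8 points such values are a description.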

How the data were processed

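Gene counts, whole numbers with 1 column per library, were used as the authors deposited them. Tools listed in the submitters' processing notes are fastp (0.12.4), STAR (2.7.9a), SAMtools (1.9) and featureCounts (1.6.2), with mm10 as the build. The kit was stranded and selected polyadenylated RNA, per the labels' protocols. How strand was set in counting, and which annotation release was used, is not given in the sources used here. The spans of the 8 genes equalled those of GENCODE M21.

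Genes passing filterByExpr (minimum count 10) were scaled by TMM and fitted in edgeR 4.0.16 (R 4.3.3) with 1 mean per group over all 8 libraries, leaving 4 residual degrees of freedom. The test was a 2-sided quasi-likelihood F test with Benjamini-Hochberg adjustment over 13721 genes, called under 0.05, and the script was tested on simulated counts, in which false calls exceeded the nominal share, so calls close to the threshold are less certain than their adjusted p states. Log2 fold changes are given ± SE. RPKM used the exon length deposited with the counts. A floor of 3 counts was 0.0608 to 0.161 CPM. Alternatives were DESeq2 1.42.0, other scalings, no filter, a replicate block, offsets for GC content and transcript length, and libraries left out.

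Members and lists were chosen with earlier results of these data known. Besides the 8 members, Vegfd, Flt4 and Dnmt3a, genes of each list with the smallest p in a comparison (at most 4) and the 3 genes closest to each member were named, except some genes that are not reported here. Markers given by level alone, such as Emcn and Mcpt4, were chosen after their values were seen.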

Additional observations from a re-analysis of the deposited data

Results flagged for a closer look

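The response to IL-6 differed between the genotypes in 4 genes, by the test of the difference itself. The difference (HET minus WT, log2) was 1.79 for Vegfa, 1.17 for Vegfb, -1.46 for Pgf and -2.45 for Flt1. For Vegfb and Flt1 it was called under every alternative tried, and for Vegfa and Pgf it was lost without single libraries, as given above. A difference of this kind was called in 8.12% of all tested genes.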

How the results depend on the processing

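Of 21 called values of the 8 genes, 10 kept sign and call under all alternatives that gave a value (17 to 19 each) and 0 changed sign. The 10 were the falls of Vegfb in WT, of Vegfc in HET and of Flt1 in HET, the rises of Kdr in both genotypes and of Nrp2 in WT, Vegfb and Flt1 between genotypes after IL-6, and the differences of response of Vegfb and Flt1. Uncalled log2 values that turned sign were Vegfa in HET for IL-6 (-0.029 without both HET number 1 libraries), Nrp1 in HET against WT (0.013 in control and 0.198 after IL-6 with GC and length offsets, with or without the block, and 0.003 after IL-6 without both HET number 1 libraries), and 4 that turned when 1 library was left out: Flt1 in WT for IL-6 (-0.096 to 0.217), and, for HET against WT, Vegfa in control (-0.331 to 0.002), Vegfc after IL-6 (-0.646 to 0.017) and Kdr after IL-6 (-0.009 to 0.116). The causes were not tested.

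Leaving out 1 library gave 3 to 5 of the 8 genes called for IL-6 in WT, 4 to 6 in HET, 0 to 2 for HET against WT in control, 2 to 3 after IL-6 and 2 to 3 for the difference. The 0 in control came without HET control number 1 or number 2, where 3 of the 8 had an unadjusted edgeR p under 0.05 each time. Over all genes the ranges were 1577 to 3073, 1203 to 3061, 33 to 1304, 879 to 4000 and 304 to 2123, against 2515, 2508, 666, 3021 and 1114. Without both HET number 1 libraries, 3 of the 8 genes were called for IL-6 in HET and 1 for HET against WT in control, and all-gene counts were 697 for IL-6 in HET, 79 in control, 1042 after IL-6 and 188 for the difference. Without both HET number 2 libraries, 0 of the 8 were called in control (2 at an unadjusted p under 0.05, 1 by DESeq2 on all libraries), and all-gene counts were 835, 203, 862 and 428. In both fits 1 library stood for each HET group, and its spread was taken from WT.

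With the replicate block, 1 of the 8 genes was called for HET against WT in control, where Pgf lost its call (adjusted p = 0.0638, or 0.0728 with the offsets), as did the rise of Pgf in WT (0.860, adjusted p = 0.0573) and of Nrp1 in HET (0.302, adjusted p = 0.0882), and all-gene counts were 339 there and 506 for the difference. Same-numbered libraries deviated together with r = -0.113 in WT and 0.152 in HET over genes. The labels do not say whether same-numbered libraries of a genotype share a mouse. With WT numbers crossed, an alternative chosen after seeing the data, 4443 genes were called in WT and 3121 for the difference, Vegfa lost its calls in both, Nrp1 in WT and the differences of Kdr and Nrp2 became called. DESeq2 called 1 of the 8 in control, where Pgf had no adjusted p, and 828 of all genes, against 666 by edgeR. Fitting only the groups compared called 3945 genes for IL-6 in HET and 437 in control, and no low-count filter 1078 in control. Offsets gave 1567 genes after IL-6 (1464 with the block) and 1704 for the difference. Flt4, Pgf, Vegfc and Flt1 had at most 234 reads in any library.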
